A study of Homo sapiens with 4 samples.

Results

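RNA was sequenced from nuclear and cytoplasmic fractions of HEK293T cells, a line derived from human embryonic kidney that carries the large T antigen of SV40. IGF2BP1, IGF2BP2, IGF2BP3, LIN28B, HMGA1 and HMGA2 were chosen by name as oncofetal genes tied to the let-7 microRNAs, 6 genes of the 51740 rows in the deposited table. There were 2 libraries from the nuclear fraction and 2 from the cytoplasmic fraction, prepared from independent biological replicates. All 4 came from wildtype cells that had been crosslinked with formaldehyde, and no library of unfractionated cells was compared here. The source label of all 4 reads total cell, while the title, molecule and fraction labels name the nuclear or cytoplasmic fraction, and these were followed. Ribosomal RNA was depleted and 400 ng of RNA went into each library, so every value is relative to the other RNA of its fraction. A change in that relative level and a change in the amount per cell cannot be told apart. Normalized counts are scaled by the authors' size factors and are not shares of a library's total.

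The IGF2BP proteins are cytoplasmic RNA-binding proteins that coat target mRNAs and are known to protect them from decay. They are made in the embryo, are largely silent in most adult tissues and return in many tumours. LIN28B binds the precursors of let-7 microRNAs and blocks their maturation. HMGA1 and HMGA2 are small chromatin proteins that bend AT-rich DNA. Mature let-7 pairs through its seed, bases 2 to 8, with sites in the 3′ UTRs of mRNAs such as HMGA2 and LIN28B and lowers their output, so LIN28B and let-7 hold each other in check.

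The seed and its sites are shown first, because they are what ties these genes together. The RefSeq table for GRCh38.p14 held 11 mature human microRNAs with the same seed, of which 8 were named let-7. Of these, 3 are given here, 5′ to 3′, with the seed in capitals. MicroRNAs themselves were not measured in these libraries.
let-7a-5p: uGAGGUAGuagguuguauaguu
let-7g-5p: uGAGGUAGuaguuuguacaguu
miR-98-5p: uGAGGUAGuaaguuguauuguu

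The reverse complement of the seed, in DNA letters, is CTACCTC, and the form followed by A, CTACCTCA, is the stronger class of site. Letters were searched on the sense strand of the 3′ UTR of each gene's canonical transcript in GENCODE 44 (hg38), where every 8-base match is also counted as a 7-base match. All 6 genes held at least 1 match, 15 in all, of which 8 were 8-base matches. IGF2BP1 held 4 in 6701 bases of 3′ UTR, LIN28B held 4 in 4549 bases and HMGA2 held 4 in 2999 bases. IGF2BP2, IGF2BP3 and HMGA1 held 1 each, in 2401, 2153 and 1347 bases. Among 17021 3′ UTRs of protein-coding genes with a count, 10.2% held a 7-base match, 3.94% held an 8-base match, and 11 genes (0.065%) held 4 or more 7-base matches. Because the genes were picked for their tie to let-7, these matches describe the choice and are not a result. A match is a run of letters and not a proven site. The first 8-base match of each gene, and for HMGA1 its only 7-base match, is printed in a window of 22 bases of the sense strand, 5′ to 3′, with the matched bases in capitals.
IGF2BP1, chr17:49051062-49051083, plus strand: gtgtgcgaagtaaaCTACCTCA
IGF2BP2, chr3:185644220-185644241, minus strand: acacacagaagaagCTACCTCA
IGF2BP3, chr7:23311795-23311816, minus strand: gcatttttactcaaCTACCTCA
LIN28B, chr6:105078813-105078834, plus strand: cccggttgcaaagtCTACCTCA
HMGA2, chr12:65963299-65963320, plus strand: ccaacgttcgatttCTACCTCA
HMGA1, chr6:34245830-34245851, plus strand: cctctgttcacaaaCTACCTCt

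The first matches of HMGA2 and LIN28B began at bases 21 and 44 of their 3′ UTRs, close behind the stop codon, whereas the first match of IGF2BP1 began at base 1632. HMGA1 lacked the A that completes the 8-base form.

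Nuclear libraries A and B held about 24500000 and 21400000 counts, and cytoplasmic libraries A and B about 24100000 and 22000000. The deposited table carries only a mean over the 4 libraries, and whole counts per library were recovered from it for 32454 of the 32478 genes with a count, each of the 6 genes among them with exactly 1 solution. The recovered genes held 94.6 and 94.5% of the nuclear and 76.7 and 77.3% of the cytoplasmic counts, and the others entered the totals as estimates. Within a fraction the deeper library is called A and the other B, because the table does not say which is replicate 1. The nuclear RNA MALAT1 had 28571 and 33938 normalized counts in nuclear libraries A and B against 3153 and 2485 in cytoplasmic libraries A and B, and NEAT1 was likewise higher in the nuclear fraction (log2 fold change −3.08, SE 0.12). HEK293T has no agreed marker gene. The 11 markers of blood, liver, fibroblasts, endothelium and nervous system summed to 403 to 490 normalized counts per library, with CD3E, PTPRC and ALB at 0 to 3 counts in every library. Most of this sum lay on the fibroblast markers COL1A1 (179 to 246 normalized counts per library) and COL3A1 (74.2 to 114), which were not called. GFAP was called cytoplasmic and RBFOX3 nuclear, on at most 113 counts in a library, and their part in the results was not tested.

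The 6 genes ran from strongly cytoplasmic to strongly nuclear. In limma fitted on 18294 genes, HMGA1 and IGF2BP1 were higher in the cytoplasmic fraction, where 37.7% of all genes tested were called. IGF2BP2, IGF2BP3 and HMGA2 were higher in the nuclear fraction, where 40.1% were called, and LIN28B was not called. All 6 genes passed the filter on low counts, and their median log2 fold change was −0.40 beside −0.07 for all genes tested. All 6 are protein-coding. Over the 13877 protein-coding genes tested the median was 0.15, with 43% called cytoplasmic and 35.6% nuclear. Calls were made at a Benjamini-Hochberg adjusted p of at most 0.01, and a positive log2 fold change means a higher value in the cytoplasm. Against these backgrounds, 2 and 3 calls among 6 genes are not a result about the group. With 2 libraries a side an exact permutation test cannot go below p = 0.333, and most of the 27.9 degrees of freedom behind each limma p come from the spread shared over genes.

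**Figure D1:**
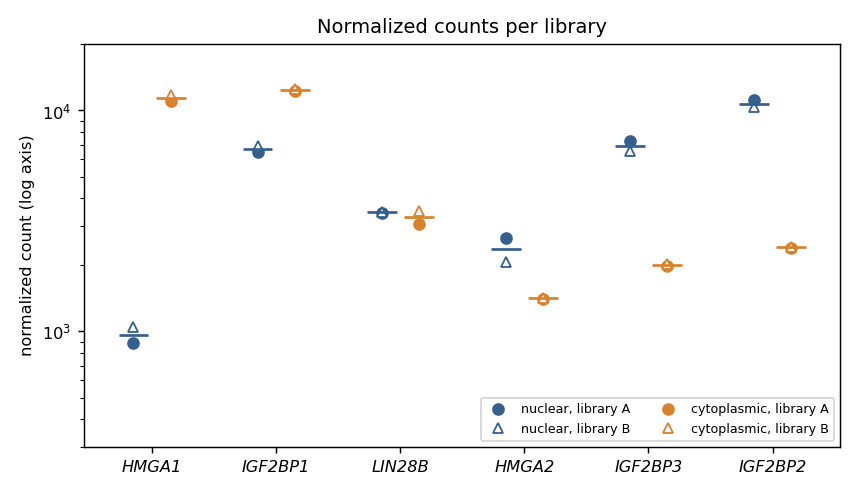
Normalized counts (vertical log axis) of the 6 genes in each nuclear and cytoplasmic library, with short lines at the mean of each fraction. HMGA1 rose from 966 to 11357 between the fraction means and IGF2BP2 fell from 10736 to 2407, while the points of LIN28B overlap.

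IGF2BP1 is the best studied of the IGF2BP family, a binder of the MYC and beta-actin mRNAs. Its gene lies on chr17:48997385-49056145 and has 15 exons in the canonical transcript. IGF2BP1 had 6455 and 6931 normalized counts in nuclear libraries A and B and 12265 and 12489 in cytoplasmic libraries A and B. Both cytoplasmic libraries lay above both nuclear libraries. The log2 fold change was 0.89 (SE 0.11, 95% interval 0.66 to 1.12, limma adjusted p = 3.9e-08), a ratio of 1.85. With the libraries scaled to equal totals it was 0.22 with an adjusted p of 0.0599, so that the call, but not the sign, depended on the scaling.

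IGF2BP2 binds mRNAs of mitochondrial and metabolic proteins and, unlike its paralogs, stays on in some adult tissues. Its gene spans chr3:185643130-185825042. IGF2BP2 had 11100 and 10371 normalized counts in nuclear libraries A and B and 2397 and 2417 in cytoplasmic libraries A and B. The fractions did not overlap, and the cytoplasmic libraries differed from each other by 0.857%. The log2 fold change was −2.16 (SE 0.11, 95% interval −2.38 to −1.93, limma adjusted p = 1.05e-16), which makes it 4.45 times higher in the nuclear fraction.

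IGF2BP3, a tumour marker that shares its RNA-binding domains with the other two, lies on chr7:23310209-23470491. IGF2BP3 had 7260 and 6543 normalized counts in nuclear libraries A and B and 1976 and 2010 in cytoplasmic libraries A and B. The nuclear libraries were again the higher ones, without overlap. The log2 fold change was −1.79 (SE 0.11, 95% interval −2.01 to −1.57, limma adjusted p = 5.51e-15), a ratio of 3.46.

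LIN28B, the let-7 antagonist, lies on chr6:104936616-105083332. LIN28B had 3451 and 3473 normalized counts in nuclear libraries A and B and 3064 and 3517 in cytoplasmic libraries A and B. The nuclear values fell between the cytoplasmic ones, so the fractions overlapped. The log2 fold change was −0.08 (SE 0.11, 95% interval −0.30 to 0.14, limma adjusted p = 0.511). It turned to 0.02 without cytoplasmic library A, and with equal library totals it was −0.74 (limma adjusted p = 8.71e-07), so LIN28B was not called on one scale and called nuclear on the other. The related LIN28A, which acts on the same precursors, was listed at 0, and a count of 0 allows up to 3 counts, or 2.24 to 3.98 normalized counts, per library.

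HMGA1, present in many dividing cells and most abundant in the embryo, is the shortest of the 6 genes, on chr6:34236873-34246231. HMGA1 had 882 and 1049 normalized counts in nuclear libraries A and B and 11005 and 11710 in cytoplasmic libraries A and B. Every cytoplasmic value was far above every nuclear value. The log2 fold change was 3.56 (SE 0.11, 95% interval 3.33 to 3.8, limma adjusted p = 6.63e-21), or 11.8 times, and 99.2% of the protein-coding genes tested had a lower one.

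HMGA1 has processed copies elsewhere in the genome, and how the counting treated reads shared with them was not examined. Of the 7 HMGA1 pseudogenes listed, 4 had a count. HMGA1P4, annotated as a lncRNA, had 577 and 498 counts in nuclear libraries A and B and 38 and 40 in cytoplasmic libraries A and B, the opposite direction to HMGA1 (log2 fold change −3.12, SE 0.22, limma adjusted p = 2.06e-13). HMGA1 itself had 1183 and 1248 counts in nuclear libraries A and B and 9386 and 8836 in cytoplasmic libraries A and B. Over all libraries the pseudogenes had 1162 counts, 5.63% of the 20653 counts on HMGA1. Without HMGA1P4 they had 9 counts, 0.0436%. Antisense genes listed for 3 of the 6 genes had 15 counts over all libraries (LIN28B-AS1), 4 (HMGA2-AS1) and 2 (IGF2BP2-AS1).

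HMGA2, the textbook let-7 target, lies on chr12:65824460-65966291. HMGA2 had 2656 and 2070 normalized counts in nuclear libraries A and B and 1404 and 1423 in cytoplasmic libraries A and B. The nuclear libraries were both higher but stood 28.3% apart, the widest gap between libraries of one fraction among the 6 genes. The log2 fold change was −0.73 (SE 0.11, 95% interval −0.96 to −0.49, limma adjusted p = 1.41e-06), a ratio of 1.66.

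**Figure D2:**
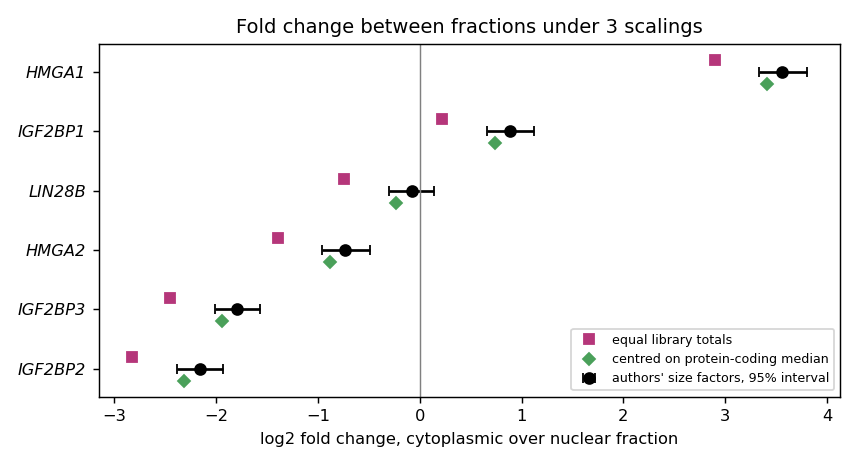
Log2 fold change of cytoplasmic over nuclear fraction (horizontal axis) for the 6 genes under the authors' size factors, with 95% intervals from limma, under equal library totals and after centring on the median of protein-coding genes. Equal totals moved all genes down by 0.66, which left HMGA1 at 2.90 and IGF2BP2 at −2.82 and moved LIN28B from −0.08 to −0.74.

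The scaling mattered for all genes alike. Under equal totals 4393 genes were called cytoplasmic and 9964 nuclear, against 6896 and 7333 with the authors' size factors, so that the cytoplasmic share of calls went from 48.5% to 30.6%. Centring on the protein-coding median moved all genes by −0.15. The order of the 6 genes and the differences between them are free of this choice, because a common shift cancels within a library.

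Within the IGF2BP family the paralog with the most counts differed between the fractions. IGF2BP1 held 26.0% (95% exact interval 25.5 to 26.5) and 29.1% (28.5 to 29.6) of the family's counts in nuclear libraries A and B, and 73.7% (73.0 to 74.4) and 73.8% (73.1 to 74.6) in cytoplasmic libraries A and B. IGF2BP2 held 44.7% and 43.5% of the nuclear counts and 14.4% and 14.3% of the cytoplasmic counts. IGF2BP3 held 29.3% and 27.4% in the nuclear and 11.9% in each of the cytoplasmic libraries. IGF2BP2 thus held the largest share of counts in both nuclear libraries and IGF2BP1 in both cytoplasmic libraries. These intervals cover counting error only.

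The ratio of IGF2BP1 to IGF2BP2 counts was 0.582 and 0.668 in nuclear libraries A and B and 5.12 and 5.17 in cytoplasmic libraries A and B. The log2 fold changes of the pair differed by 3.04 (SE 0.16, 95% interval 2.72 to 3.37). IGF2BP1 and IGF2BP3 differed by 2.68 (SE 0.16, 95% interval 2.35 to 3.0), with a count ratio of 0.889 and 1.06 in the nuclear and 6.21 in each of the cytoplasmic libraries. IGF2BP3 and IGF2BP2 lay much closer, 0.37 apart (SE 0.15, 95% interval 0.05 to 0.68). The standard errors take the errors of a pair as independent, and 4 pairs of paralogs were compared, each with an exact permutation p of 0.333, the smallest that 2 against 2 libraries can give.

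The division of counts between HMGA1 and HMGA2 also differed between the fractions. HMGA1 held 24.9% (95% exact interval 23.7 to 26.2) and 33.6% (32.1 to 35.2) of the counts on both genes in nuclear libraries A and B. In cytoplasmic libraries A and B it held 88.7% (88.1 to 89.3) and 89.2% (88.5 to 89.8). HMGA1 over HMGA2 went from 0.332 and 0.507 in the nuclear libraries to 7.84 and 8.23 in the cytoplasmic libraries. The log2 fold changes differed by 4.29 (SE 0.16, 95% interval 3.96 to 4.62), and by 3.99 and 4.60 without nuclear library A and without nuclear library B.

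**Figure D3:**
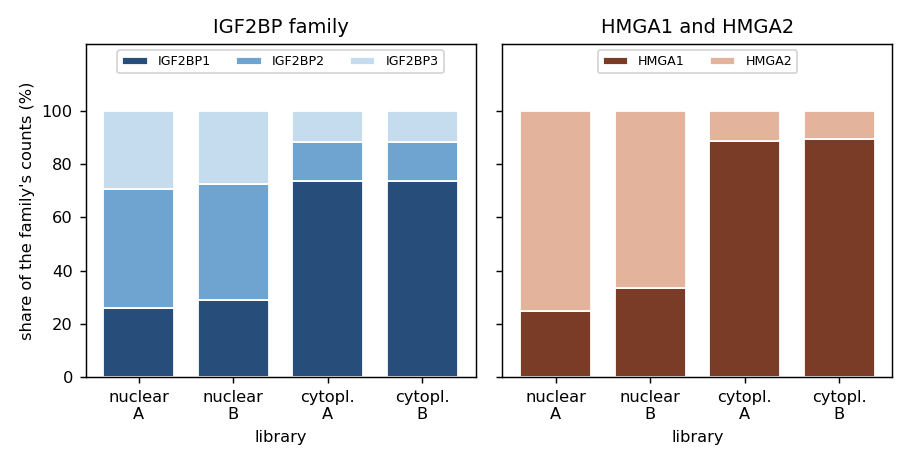
Share of a family's counts (vertical axis, percent, from 0) held by each paralog in each library, for the IGF2BP family and for HMGA1 and HMGA2. IGF2BP1 went from 26.0 and 29.1% in the nuclear to 73.7 and 73.8% in the cytoplasmic libraries, and HMGA1 from 24.9 and 33.6% to 88.7 and 89.2%.

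Counts rise with the length of RNA that is counted, so levels of different genes were compared per kb of merged exons. In the nuclear fraction the order of mean levels was IGF2BP2 (2014 normalized counts per kb), IGF2BP3 (809), IGF2BP1 (695), LIN28B (582), HMGA1 (415) and HMGA2 (157). In the cytoplasmic fraction it was HMGA1 (4881), IGF2BP1 (1285), LIN28B (554), IGF2BP2 (452), IGF2BP3 (234) and HMGA2 (93.8). Neighbours in these orders did not overlap between their libraries. HMGA1 was thus above HMGA2 in both fractions on this scale, although HMGA2 had more counts in the nuclear libraries, and HMGA2 was the lowest of the 6 genes in both. Merged exons cover all annotated transcripts of a gene. For HMGA2 they made 15.1 kb, against 327 coding and 2999 3′ UTR bases in its canonical transcript. For HMGA1 they made 2.33 kb, against 321 and 1347 bases. The low place of HMGA2 on this scale thus depends on the 15.1 kb. The order per kb of canonical transcript was not tested and may differ from the one above.

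Reads in introns were counted with those in exons, and the table does not keep them apart. Exons made up 24.9% of the span of HMGA1 and 16.4% of IGF2BP1, but 10.6% of HMGA2, 5.32% of IGF2BP3, 4.05% of LIN28B and 2.93% of IGF2BP2. Per kb of whole span, the nuclear order became IGF2BP1 (114 normalized counts per kb), HMGA1 (103), IGF2BP2 (59.0), IGF2BP3 (43.1), LIN28B (23.6) and HMGA2 (16.7), and the libraries of IGF2BP1 and HMGA1 overlapped. HMGA1 (1214) and IGF2BP1 (211) led the cytoplasmic fraction on this scale too. The nuclear lead of IGF2BP2 thus held per kb of exon and not per kb of span. How much of the nuclear count came from unspliced RNA cannot be told apart in these values.

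The fold changes of the 6 genes were nearly in the order of their spans. HMGA1 spans 9.36 kb and IGF2BP1 58.8 kb, and HMGA2, LIN28B, IGF2BP3 and IGF2BP2 span 142, 147, 160 and 182 kb. Spearman's correlation between span and log2 fold change was −0.94 over the 6 genes, as a description, and −0.66 over 13873 protein-coding genes, which share these 4 libraries. The correlation with the length of merged exons was −0.14 and with the 3′ UTR 0.09 over the 6 genes.

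Protein-coding genes were split into 10 groups of equal size by span. HMGA1 fell in a group of 6.09 to 11.5 kb whose median log2 fold change was 1.42, and lay 2.14 above that median and above 99.1% of the group. IGF2BP1 fell in the group of 50.6 to 72.3 kb, with a median of −0.19, and lay 1.08 above it and above 87.0% of its 1387 genes. The other 4 genes shared the group of 110 to 189 kb, with a median of −0.93 and quartiles of −1.59 and −0.25. There LIN28B lay 0.85 above the median, HMGA2 0.20 above it, IGF2BP3 0.86 below it and IGF2BP2 1.23 below it. In that group 69.9% of genes were called nuclear and 9.37% cytoplasmic.

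**Figure D4:**
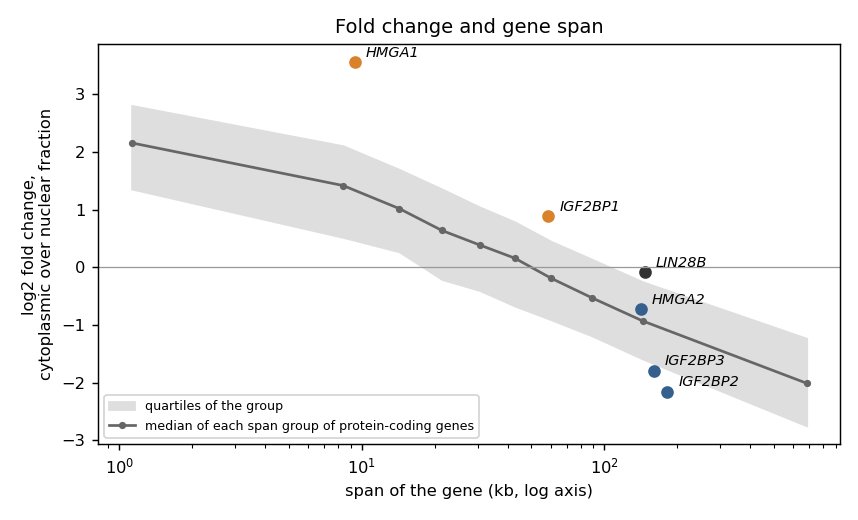
Log2 fold change of cytoplasmic over nuclear fraction (vertical axis) against gene span in kb (log axis) for the 6 genes, over the median and quartiles of each of 10 span groups of protein-coding genes. HMGA1, IGF2BP1 and LIN28B lie above the upper quartile of genes of their span and IGF2BP2 and IGF2BP3 below the lower quartile, while HMGA2 lies 0.20 from the median.

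Genes with let-7 matches in their 3′ UTR were found in both directions. The median log2 fold change was 0.16 over 12324 genes tested without a 7-base match (quartiles −0.99 and 1.27), of which 5318 were called cytoplasmic and 4376 nuclear. It was 0.08 over 1503 genes with 1 to 3 matches (quartiles −0.95 and 1.01), of which 620 were called cytoplasmic and 552 nuclear. The 11 genes with 4 or more matches, IGF2BP1, LIN28B and HMGA2 among them, had a median of −0.08, with 2 called cytoplasmic and 4 nuclear. Over all protein-coding genes tested, 43% were called cytoplasmic and 35.6% nuclear. Beside these shares, 2 and 4 calls among 11 genes are not a result about genes with many matches. The cytoplasmic call of IGF2BP1 was also lost with equal library totals. Median spans in these groups were 34.9, 46.8 and 58.8 kb.

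Genes of the machinery that makes and uses let-7 were found in both directions. Of 17 listed genes tested, LIN28B included, 4 were called cytoplasmic and 9 nuclear, with a median log2 fold change of −0.59, where the background over all genes tested was 37.7 and 40.1%. With equal library totals the counts were 1 and 13. DGCR8, the partner of DROSHA in cutting primary microRNAs, was lowest at −2.04 (SE 0.11), and TNRC6A, a scaffold of silencing complexes, had −2.0 (SE 0.11). DIS3L2, the nuclease that degrades let-7 precursors marked through LIN28, had −1.82 (SE 0.11). TARBP2, a partner of DICER1, was highest at 1.63 (SE 0.12). AGO1 (0.83, SE 0.11) and XPO5 (0.78, SE 0.11), the exporter of precursors, were also called, but not with equal library totals (0.16 and 0.12). All these values are those of the mRNAs and say nothing of where the proteins act.

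Other mRNAs known as let-7 targets went both ways. Of 26 tested, 13 (background 37.7%) were called cytoplasmic and 8 (background 40.1%) nuclear, with a median of 0.42. With equal library totals the counts turned to 9 cytoplasmic and 12 nuclear. CDC34, a ubiquitin-conjugating enzyme, had a log2 fold change of 2.45 (SE 0.11), and the RAS genes HRAS and NRAS had 2.42 (SE 0.13) and 2.40 (SE 0.11). PBX3, a homeobox factor, had −3.08 (SE 0.12), NR6A1, a nuclear receptor, had −2.68 (SE 0.12), and FIGN, a microtubule-severing enzyme, had −2.42 (SE 0.12).

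Of 9 proteins found in IGF2BP1 ribonucleoproteins, the mRNAs of 5 were called cytoplasmic and those of 2 nuclear, with a median of 0.45, beside the same background of 37.7 and 40.1%. With equal library totals the counts were 2 and 4. YBX1, an mRNA-packaging protein, led with a log2 fold change of 3.12 (SE 0.13), followed by ELAVL1 (1.38, SE 0.11), a binder of AU-rich elements. MATR3 had 0.71 (SE 0.11) but 0.05 with equal library totals. ELAVL2, the neuronal relative of ELAVL1, had −1.64 (SE 0.14) and FMR1 −0.83 (SE 0.11).

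Of 12 other high mobility group genes tested, 9 were called cytoplasmic and 1 nuclear, with a median of 1.27, where 37.7 and 40.1% of all genes tested were so called. With equal library totals the counts were 7 and 3. The nucleosome-binding HMGN2 (2.91, SE 0.12) and HMGN1 (1.91, SE 0.11) and the DNA-bending HMGB3 (2.21, SE 0.11) rose most, and HMGN5 was nuclear (−1.54, SE 0.26). HMGB4 was listed at 0. Several of these genes, and YBX1, have processed pseudogenes, and how the counting shared such reads was not examined.

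Of 6 other oncofetal genes tested, PRAME (1.73, SE 0.18), PEG10 (1.57, SE 0.11) and TPBG (1.37, SE 0.14) were called cytoplasmic, and GPC3 (−2.28, SE 0.20) and SALL4 (−0.90, SE 0.20) nuclear. The median was 0.69, and the background was 37.7% cytoplasmic and 40.1% nuclear. With equal library totals the counts were 3 and 3. LIN28A and DPPA4 were listed at 0. IGF2, whose mRNA gave the IGF2BP family its name, had 8 and 0 counts in nuclear libraries A and B and 1 and 0 in cytoplasmic libraries A and B. H19, a long RNA also bound by the family, had 1 to 11 counts per library.

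Of 6 tested transcripts listed by name as hosts of let-7 and miR-98 hairpins, 5 were called nuclear, beside 40.1% of all genes tested. Whether each of them holds such a hairpin was not tested. Their median of −2.72 was the lowest of the 6 lists. HUWE1 was not called (0.26, SE 0.13), but was called nuclear with equal library totals (−0.41). Of the 18294 genes behind the 40.1%, 13877 were protein-coding, and these were called nuclear less often (35.6%). The genes tested that are not protein-coding, such as lncRNAs, were therefore called nuclear more often than 40.1%. MIR99AHG had a log2 fold change of −4.04 (SE 0.13), MIR100HG −3.94 (SE 0.49) and MIRLET7A1HG −3.02 (SE 0.17). MIR100HG rested on 100 and 118 counts in the nuclear and 4 in each of the cytoplasmic libraries.

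**Figure D5:**
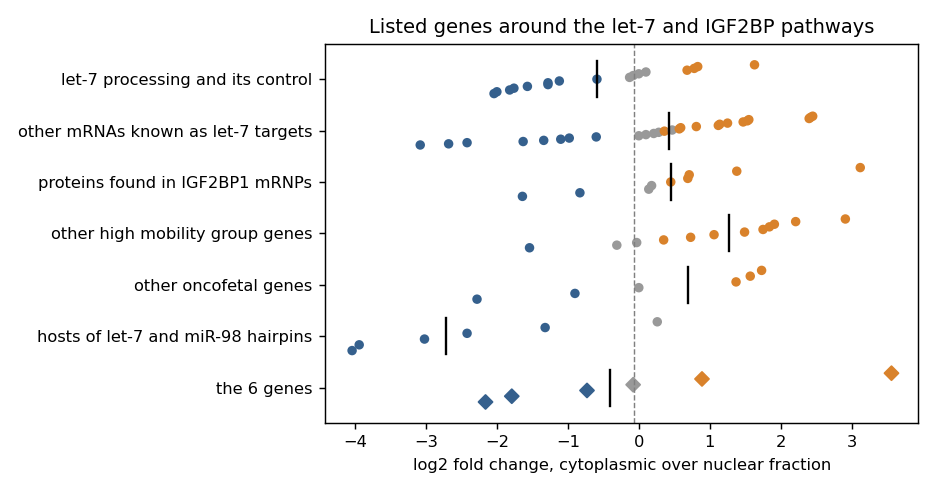
Log2 fold change of cytoplasmic over nuclear fraction (horizontal axis) of each gene tested in 6 lists and of the 6 genes themselves, with genes called cytoplasmic in orange, called nuclear in blue and not called in grey. Black lines mark the median of each list, from −2.72 for the genes listed as hosts of let-7 and miR-98 hairpins to 1.27 for other high mobility group genes. The dashed line marks the median of all genes tested, −0.07.

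The genes closest to each of the 6 in level and fraction were found among 13877 protein-coding genes, by the Euclidean distance over the 4 libraries in log2 normalized count. For IGF2BP1 they were XRCC5 (distance 0.09) and LARP1 (0.10), and for LIN28B UGGT1 (0.05) and GNL3L (0.08). HMGA1 lay closest to GSTP1 (0.15) and SLC25A5 (0.20). HMGA2 lay closest to CLEC16A (0.08) and VGLL4 (0.12), IGF2BP3 to TCF12 (0.13) and KLF12 (0.17), and IGF2BP2 to PDE10A (0.32) and UTRN (0.34).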

How the data were processed

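Total RNA of both fractions was depleted of ribosomal RNA, made into stranded libraries and read from both ends for 100 nt. The authors aligned the reads to hg38 with STAR and counted them with featureCounts 2.0.2 (minimum overlap 20 bases) over exons and introns of a GENCODE 34 annotation, extended with NCBI genes and stripped of stretches shared by several genes. The authors compared the fractions with DESeq2. The deposited mean normalized count is a signal that the authors averaged over the 4 libraries. The deposited fold change, with its standard error, is on the log2 scale. The table also holds the authors' test statistic, p-value and adjusted p-value, which were not used.

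Counts per library were recovered first. Means of low genes are whole-number combinations of 4 steps, each the inverse of 4 times a size factor, and all 4077 distinct means under 10 fitted exactly 1 combination. For higher genes not settled by the mean alone, whole counts were accepted where they returned the deposited mean and fold change to the digits given. The deposited standard error set the spread used in that fit and was not a separate check. Those 2 columns served to choose among whole-count solutions and to tell the fractions apart. Of 32478 genes with a count, 32454 had exactly 1 solution, 11 had several, 1 had none and 12 with a mean over 50000 were not tried. Genes without a single solution entered library totals only, as fraction means derived from the deposited mean and fold change. The setting with equal library totals rests on these totals. The recovery was tested on simulated data. Replicate numbers could not be tied to the recovered libraries. The libraries of a fraction were not copies of each other: between them the chi-square per gene was 7.80 for the nuclear pair and 8.05 for the cytoplasmic pair, where counting error alone gives about 1.

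Recovered counts scaled by the authors' size factors were tested with limma 3.58.1 in R 4.3.3 (voom weights, lmFit, eBayes, 2-sided, Benjamini-Hochberg over 18294 genes with at least 10 normalized counts in at least 2 libraries, pseudocount 0.5), with the study's threshold of 0.01. The fit was tested on simulated data. Intervals are 95%, those of shares by the exact Clopper-Pearson method, and the floor of a count of 0 is 3 counts. Gene spans, merged exons and 3′ UTRs came from GENCODE 44 (hg38), in which 99.5% of tested identifiers were found. Python 3.11.15 with scipy 1.17.1 was used for the rest.

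The 6 genes and the lists were chosen with earlier results of these data known, so that no p-value was adjusted over a list alone. Named were the 6 genes, up to 3 called genes with the largest fold in each direction per list, listed genes at 0, the 2 nearest genes of each member, MALAT1 and NEAT1. CD3E, PTPRC, ALB, COL1A1, COL3A1, GFAP and RBFOX3, as well as HUWE1, IGF2, H19 and the pseudogenes and antisense genes, were named after their values were seen. MIRLET7IHG was not analysed here, and 1 marker gene is not reported here. Alternatives were equal library totals, centring on protein-coding genes, other low-count filters, limma-trend with pseudocounts of 0.5 and 2, leaving out each library and the Bonferroni correction.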

Additional observations from a re-analysis of the deposited data

How the results depend on the processing

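No paired analysis was possible because the libraries recovered from the table carry no replicate number. With equal library totals, 4393 genes were called cytoplasmic, 1 of the 6 genes was called cytoplasmic (HMGA1), IGF2BP1 stood at 0.22 (not called) and LIN28B at −0.74 (called nuclear). In the same setting the list of let-7 processing had 1 cytoplasmic and 13 nuclear calls, the other let-7 targets 9 and 12, the IGF2BP1 ribonucleoproteins 2 cytoplasmic and 4 nuclear calls, and the high mobility group genes 3 nuclear calls, or 2 after centring on protein-coding genes. Under the Bonferroni correction 4592 genes were called cytoplasmic and 4353 nuclear, HMGA2 kept its value of −0.73 but missed the threshold (adjusted p = 0.0128, limma), the IGF2BP1 ribonucleoproteins had 3 cytoplasmic calls, the high mobility group genes 0 nuclear calls and the other oncofetal genes 1. Without a filter on low counts the listed hairpin hosts had 1 cytoplasmic call. Leaving out 1 library at a time gave LIN28B values of −0.18 to 0.02 and HMGA1 over HMGA2 differences of 3.99 to 4.60. Of the 6 genes' fold changes, 62 of 66 alternative values kept their direction and side of the threshold. The cause of these changes was not tested, beyond the common shift of −0.66 that equal totals give. Each fraction rests on 2 libraries, and depth limits none of the 6 genes, whose lowest count was 1074.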
